A study of Mus musculus with 2 samples.

Results

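Mouse embryonic stem (ES) cells make serine, break down threonine and glycine, and pass the single carbons so released to folate and methionine. The 10 genes described here, Tdh, Gcat, Gldc, Phgdh, Psat1, Psph, Shmt1, Shmt2, Mthfd2 and Bhmt, encode enzymes of these routes. They were chosen by name as genes of threonine, serine and one-carbon metabolism, with earlier results of these data known. All 10 stood among the 14261 rows of the deposited expression table. RNA-seq was made from 2 suspension cultures of ES cells that the labels call TRE-ESC, both labelled 36 h and both grown in N2B27 medium with 2i (kinase inhibitors) and the cytokine LIF, additions known to keep mouse ES cells naive. The dishes were of a kind to which cells adhere poorly. Doxycycline (dox), the usual inducer of tetracycline-controlled transgenes, was added to one culture and left out of the other. The series title names c-Jun as an inducer of differentiation, and Jun, its gene, was listed at 3821 with dox, against 55 without dox. The sources used here give neither the promoter of a transgene, nor the strain, nor whether the line is 1 clone.

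There was 1 library per group, so no test, p-value or SD could be computed, and every difference below describes these 2 libraries. The values are whole numbers on a normalized scale, with the same quartiles of 14, 62 and 184 in both libraries, and the sequencing depth is unknown. Of 12 ES cell markers 9 were at least 2-fold lower with dox, against 5.49% of the 8547 genes kept by the floor defined below. None of the 12 was at least 2-fold higher, against 9.23% of those genes. The summed values of the 12 markers were 11735 with dox and 19889 without dox. Nanog stood at 623 with dox and 2508 without, and Pou5f1 (Oct4) at 3572 with dox and 3230 without. None of 10 fibroblast markers reached a value of 50, and their sums were 80 with dox and 33 without. Col3a1 stood at 39 with dox and 2 without, and Col1a2 at 19 with dox and 8 without. Pdgfrb, at 2 with dox and 6 without, and Postn, at 8 with dox and 11 without, went the other way. Dcn, Lum and Fap were at 0 in both libraries. Lars2, known to collect reads of ribosomal RNA, stood at 646 with dox and 14907 without. The single genes named in this paragraph were chosen after their values were seen, and the part of these differences in the values below was not tested. In bulk RNA, fewer cells of a type and less RNA per cell cannot be told apart.

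As background, threonine dehydrogenase (Tdh) and the ligase Gcat work in sequence in mitochondria and turn threonine into glycine and acetyl-CoA, and mouse ES cells are known for high Tdh expression and for dependence on threonine. Serine is made from a glycolytic intermediate by Phgdh, Psat1 and Psph in that order, and the hydroxymethyltransferases Shmt1 and Shmt2 split it into glycine and a one-carbon unit bound to folate. Bhmt returns a methyl group from betaine to homocysteine and so makes methionine, the precursor of the methyl donor S-adenosylmethionine.

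Upstream sequences were read for the genes on which the comparison turns: the 3 lower genes with an entry in the promoter table, Mthfd2 as a gene whose values were close in both libraries, and the stretch between the starts of Bhmt2 and Dmgdh, a pair of neighbours of Bhmt described further on. All are from RefSeq on the build GRCm38.p6, and 9 of the 10 genes had an entry. Each line gives 250 bases 5′ of the RefSeq start on the gene's own strand, except the last, which gives the 133 bases between both starts on the plus strand. Capitals mark GC boxes (GGGCGG) and CCAAT boxes (CCAAT) on either strand. The intervals are chr13:93637759-93638008 for Bhmt, chr11:60811266-60811515 for Shmt1, chr5:129787254-129787503 for Psph and chr6:83317605-83317854 for Mthfd2, all on the minus strand, and chr13:93674303-93674435 for the last. GENCODE places the outermost start of each of these 4 genes farther upstream, inside the printed window or beyond it.
Bhmt: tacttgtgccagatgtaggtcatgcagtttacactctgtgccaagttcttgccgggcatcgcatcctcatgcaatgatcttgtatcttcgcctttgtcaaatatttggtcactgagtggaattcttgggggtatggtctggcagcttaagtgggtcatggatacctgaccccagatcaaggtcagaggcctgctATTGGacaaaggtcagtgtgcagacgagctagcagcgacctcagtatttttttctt
Shmt1: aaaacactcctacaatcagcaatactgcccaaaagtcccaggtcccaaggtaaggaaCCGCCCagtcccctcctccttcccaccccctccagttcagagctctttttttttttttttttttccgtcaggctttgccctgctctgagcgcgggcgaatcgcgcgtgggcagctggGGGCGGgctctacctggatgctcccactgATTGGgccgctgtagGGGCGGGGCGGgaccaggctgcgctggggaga
Psph: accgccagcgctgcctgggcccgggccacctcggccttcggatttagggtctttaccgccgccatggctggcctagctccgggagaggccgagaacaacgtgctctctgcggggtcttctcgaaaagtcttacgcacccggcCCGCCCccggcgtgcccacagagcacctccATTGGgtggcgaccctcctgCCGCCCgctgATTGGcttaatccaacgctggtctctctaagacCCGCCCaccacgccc
Mthfd2: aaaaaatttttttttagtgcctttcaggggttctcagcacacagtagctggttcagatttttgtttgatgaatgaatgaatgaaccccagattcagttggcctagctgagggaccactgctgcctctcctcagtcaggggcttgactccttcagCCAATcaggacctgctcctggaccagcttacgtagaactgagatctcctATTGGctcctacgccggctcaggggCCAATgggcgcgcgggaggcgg
Bhmt2-Dmgdh: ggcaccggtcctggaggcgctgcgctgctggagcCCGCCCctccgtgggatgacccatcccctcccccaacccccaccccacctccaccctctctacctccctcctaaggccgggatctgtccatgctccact

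The windows differed in composition. That of Bhmt held 5 CpG dinucleotides and 48.0% G and C, that of Mthfd2 7 and 52.4%, that of Shmt1 13 and 60.0%, and that of Psph 23 and 67.2%, against medians of 6 and 52.4% over all 32851 promoter windows. Shmt1 had 4 GC boxes, a pair of which overlap by a base, and Psph had 3, whereas Bhmt and Mthfd2 had none. Over all 10 windows of the 9 genes (Psat1 has a pair), a GC box stood in 5 and a CCAAT box in 7, against 32.7% and 33.8% of all promoter windows. A TATA box (TATAAA) stood in 1, against 12.4%. These boxes were added to the search after the windows were seen, so their shares are a description only. None of the 10 windows held the AP-1 element TGANTCA (6.75% of all windows do), the cyclic AMP element TGACGTCA (1.55%), the ATF4 element TGATGNAA (3.45%) or the E-box CACGTG (6.02%), searched on both strands. A match or its lack describes only the letters of these 250 bases.

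The 10 genes did not move as a block. With dox, Bhmt and Tdh were far lower, Shmt1 and Psph were about 2-fold lower, 4 genes were lower by less than 2-fold, and Psat1 and Mthfd2 were slightly higher. Folds are ratios of the values plus a pseudocount of 10, and genes were counted where the larger value was at least 50, which all 10 reached, although Bhmt and Psph reached it only through the library without dox. At least 2-fold lower with dox were 4 of the 10, against 5.49% of all 8547 genes at or above that floor, and 0 of the 10 were at least 2-fold higher, against 9.23%. Their median log2 ratio of dox over no dox was −0.54, and that of all 8547 genes was −0.08. A log2 ratio below 0 was found in 8 of the 10, against 54.9% of all genes. The 10 genes, like the pathway lists below, were chosen with earlier results of these data known, so these shares are a description only. The count of 4 rests partly on a pair of genes at the threshold, since Shmt1 and Psph left it when the median of all genes was set to 0, when the trend with transcript length was removed or with a pseudocount of 50, which gave 2 of the 10 each time.

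**Figure D1:**
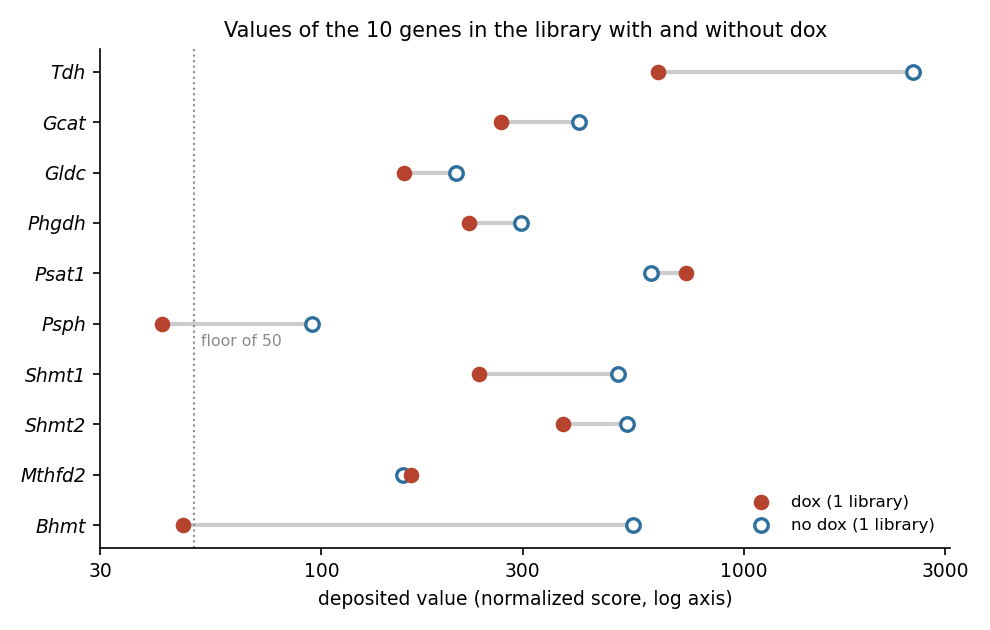
Deposited value of each of the 10 genes (log axis) in the library with dox (filled) and without dox (open), 1 library each, with the floor of 50 as a dotted line. Bhmt runs between 47 with dox and 548 without, Tdh between 628 and 2512, and the pairs of Mthfd2 and Psat1 lie in the opposite order.

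**Figure D2:**
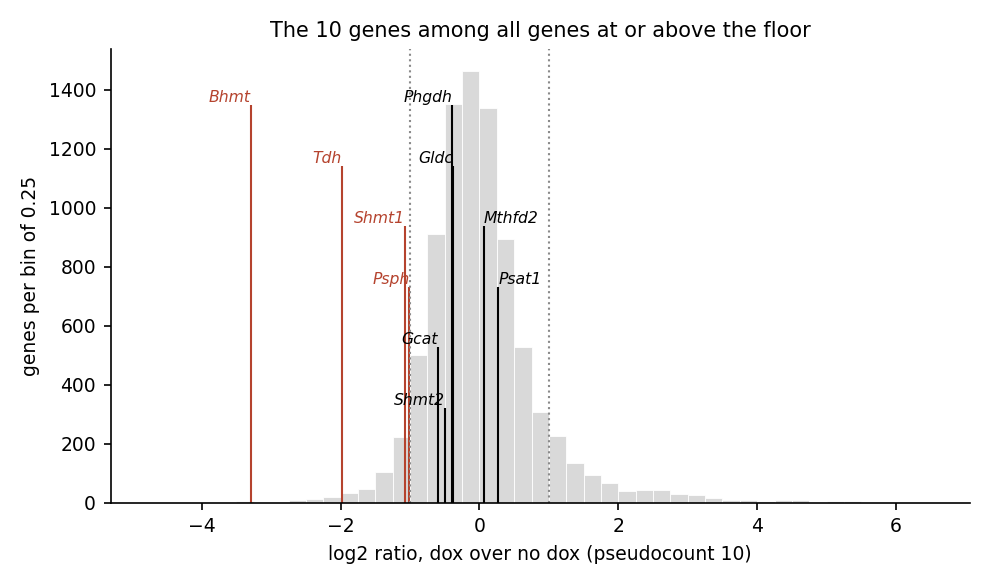
Number of genes (y axis) by log2 ratio of dox over no dox (x axis, bins of 0.25) for the 8547 genes at or above the floor, with the 10 genes as vertical lines whose height has no meaning and red marking those at least 2-fold lower. Bhmt and Tdh lie in the thin lower tail, Shmt1 and Psph beside the dotted 2-fold line, and the other 6 in the bulk of the genes.

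In threonine breakdown the largest difference was that of Tdh, which encodes the first enzyme of the route. Tdh maps to chromosome 14, minus strand, 63492347 to 63509092 in GRCm38, with 9 exons in its longest coding transcript. It stood at 628 with dox and 2512 without dox, a log2 ratio of −1.98 or 3.95-fold lower, and only 0.667% of the 8547 genes had a ratio as low or lower. By value it held rank 808 of all rows with dox and rank 94 without dox, and in both libraries its value was above the median of 62. Under 6 other processing settings its log2 ratio was never above −1.81, although those that change the floor could not move it. A transcribed pseudogene, Gm13929, shares 1125 nt with Tdh transcripts and has no row of its own in the table, so its reads, if any, cannot be told apart from those of Tdh.

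Gcat, which encodes the enzyme of the next step, maps to chromosome 15, plus strand, 79030874 to 79038353. It stood at 266 with dox and 408 without dox, a log2 ratio of −0.60 or 1.51-fold lower, and 16.9% of all genes had a ratio as low. Gcat is the only other gene of the 10 past 1.5-fold, and at that threshold 5 of the 10 were lower, against 17.7% of all genes, and 0 were higher, against 16.7%. That call ends, with Gcat within 1.5-fold, at a pseudocount of 50 (log2 ratio −0.54), with the median of all genes set to 0 (−0.52) and with the length trend removed (−0.49). Another GENCODE entry named Gcat runs from 79030901 to 79042531. Exons of Gcat overlap those of Galr3 on the same strand over 363 nt. Galr3 has no row in the table, so reads of this stretch cannot be told apart. Divided by the length of the longest coding transcript, the level of Tdh was 2.97 times that of Gcat with dox and 7.76 times without dox. Whether the values are already scaled by length is not given, a limit of every level per length below too.

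Gldc encodes the glycine decarboxylase, the subunit that starts the mitochondrial glycine cleavage system. The gene maps to chromosome 19, minus strand, 30098447 to 30175429 and has 25 exons. It stood at 157 with dox and 208 without dox, a log2 ratio of −0.38. The remaining subunits of the system, named after their values were seen, were also within 2-fold. Amt stood at 172 with dox and 272 without, Gcsh at 346 with dox and 409 without, and Dld, which serves other dehydrogenase complexes too, at 231 with dox and 197 without. Among the 6 measured genes of threonine and glycine breakdown, only Tdh was past 2-fold, and the median log2 ratio was −0.49. Of all genes 5.49% were at least 2-fold lower and 9.23% higher.

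The 3 genes of serine synthesis went different ways. Phgdh, which encodes the dehydrogenase of the first step, maps to chromosome 3, minus strand, 98313170 to 98339990 and stood at 224 with dox and 297 without dox, a log2 ratio of −0.39. Its transcripts share at least 300 nt at 95% identity or more with those of 12 pseudogenes, none of which has a row in the table, so that value may hold reads of copies. Psat1, the aminotransferase gene of the second step, maps to chromosome 19, minus strand, 15904678 to 15947337. It was the member with the highest log2 ratio, 0.27, at 729 with dox and 603 without dox. By value it ranked 662 with dox and 869 without.

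Psph encodes the phosphatase that releases serine in the last step. It maps to chromosome 5, minus strand, 129765558 to 129787449, and its GC-rich window is printed above. It stood at 42 with dox and 95 without dox, a log2 ratio of −1.01 or 2.02-fold lower, just past the threshold. With a pseudocount of 50 the log2 ratio was −0.66. Psph overlaps Cct6a, a chaperonin subunit gene on the opposite strand, over 452 nt of exons. Cct6a stood at 1159 with dox and 1458 without dox, and without strand in the counting, which no source used here states, reads of this stretch cannot be told apart. The 3 values of the pathway thus did not share a direction, and their sum was 995 in each library. Psat1 makes up most of that sum, and the scaling of values between genes is not given. The equal sums therefore say nothing about the pathway as a whole.

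The hydroxymethyltransferase genes Shmt1 and Shmt2 encode the cytosolic and the mitochondrial enzyme of the same reaction. Shmt1 maps to chromosome 11, minus strand, 60788104 to 60811718. It stood at 236 with dox and 505 without dox, a log2 ratio of −1.07 or 2.09-fold lower, and 4.55% of all genes had a ratio as low. With the trend on transcript length removed the ratio was just inside 2-fold, and with a pseudocount of 50 it was −0.96. An exon overlap of 184 nt with Smcr8 on the opposite strand, which stood at 226 with dox and 200 without dox, has the same limit as that of Psph.

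Shmt2 maps to chromosome 10, minus strand, 127517123 to 127522444. It stood at 374 with dox and 528 without dox, a log2 ratio of −0.49 or 1.40-fold lower. Per length of the longest coding transcript, the level of Shmt2 was 1.98 times that of Shmt1 with dox and 1.31 times without dox. Mthfd2, the gene of the mitochondrial dehydrogenase and cyclohydrolase that acts on the one-carbon folate made by Shmt2, maps to chromosome 6, minus strand, 83305691 to 83325908. It was nearly level, at 163 with dox and 156 without dox, a log2 ratio of 0.06.

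In the wider folate lists few genes were past 2-fold. Of all genes 5.49% were at least 2-fold lower and 9.23% higher. In the mitochondrial list 0 of 7 measured genes were past 2-fold, and 1 was lower with a pseudocount of 1 or with the length trend removed. Its median log2 ratio of −0.05 depended on the genes kept and became −0.49 with a floor of 250, −0.22 with no floor and 0.03 with the median of all genes set to 0. In the cytosolic list 1 of 11 was past 2-fold, Shmt1 itself, and the median was −0.50. Named after their values were seen, Mthfd1, the trifunctional enzyme gene of the cytosol, stood at 542 with dox and 984 without, and the folate receptor gene Folr1 at 90 with dox and 179 without.

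Bhmt had the lowest log2 ratio of the 10, −3.29, and the rank 5 from the lowest among all 8547 genes. The gene maps to chromosome 13, minus strand, 93616675 to 93637961. It stood at 47 with dox and 548 without dox, 9.79-fold lower, and its rank by value was 7914 with dox and 994 without. Its log2 ratio ran from −3.52 with a pseudocount of 1 to −2.62 with one of 50. Gm5096, a gene annotated as coding, shares 1869 nt with Bhmt at 99.4% identity, and the pseudogene Bhmt-ps1 shares 1224 nt at 98.9%, and neither has a row in the table. The value of Bhmt is therefore uncertain as to which copy the reads came from.

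Genes beside Bhmt were also lower with dox, a comparison made after their values were seen. Bhmt2, which encodes a related methyltransferase, starts 36.3 kb away and stood at 26 with dox and 78 without dox, a log2 ratio of −1.29. Dmgdh, the gene of the mitochondrial enzyme that oxidises the dimethylglycine released by Bhmt, starts in the opposite direction from the short stretch printed above and stood at 76 with dox and 187 without dox, a log2 ratio of −1.20. Both ratios were within 2-fold with a pseudocount of 50, at −0.75 for Bhmt2 and −0.91 for Dmgdh.

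The genes flanking this cluster differed little or went the other way. Jmy, whose start lies at −138.2 kb along the plus strand, stood at 109 with dox and 114 without. Homer1 stood at 131 with dox and 126 without, and Papd4 at 189 with dox and 211 without. Arsb, the next listed gene beyond Dmgdh, was under the floor at 16 with dox and 12 without, and Lhfpl2, 419.8 kb away, stood at 118 with dox and 46 without. Within 500 kb of their starts, the 10 genes had 100 measured neighbours in all. Of these, 9 were at least 2-fold lower, against 5.49% of all genes, and 11 at least 2-fold higher, against 9.23%. The share of higher neighbours is near that of all genes. Most of the 9 lower neighbours, Bhmt2 among them, reached the floor only through the library without dox. Some of the 11 higher ones, Lhfpl2 among them, reached it only with dox. Neither count therefore supports anything about the regions.

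**Figure D3:**
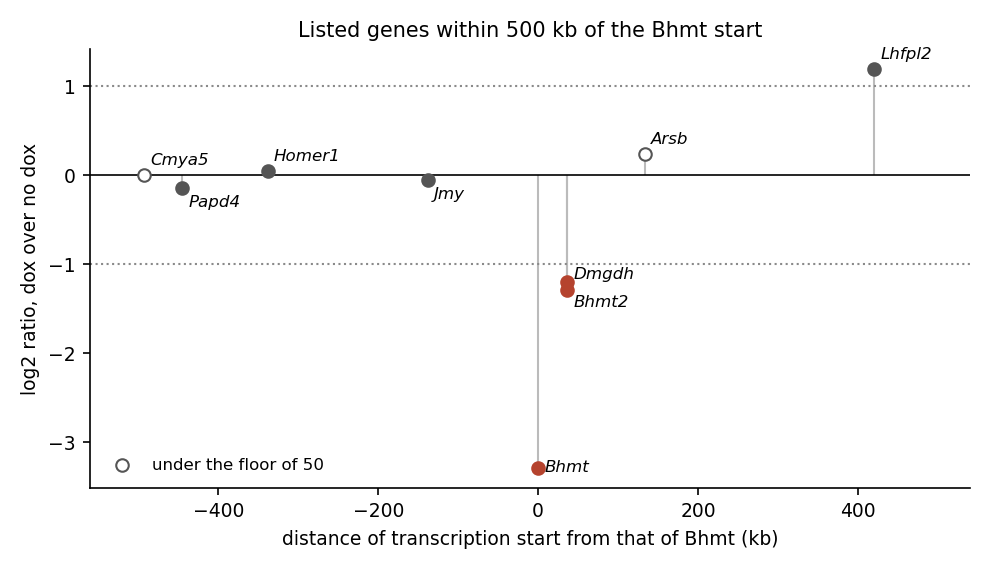
Log2 ratio of dox over no dox (y axis) of each listed gene within 500 kb of the start of Bhmt, by distance of its start along the plus strand in kb (x axis). Bhmt at −3.29, Bhmt2 at −1.29 and Dmgdh at −1.20 lie below the dotted 2-fold line, while Jmy, Homer1 and Papd4 lie near 0 and Lhfpl2 above 1.

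In the list of the methionine cycle and betaine 4 of 15 measured genes were at least 2-fold lower, against 5.49% of all genes, and 0 higher, against 9.23%, with a median log2 ratio of −0.31. The count of 4 was 2 with a pseudocount of 50 and 2 with a floor of 250, and Bhmt2, like Bhmt, reached the floor of 50 only through the library without dox. Beside Bhmt, Bhmt2 and Dmgdh these held Cbs, the gene of the enzyme that takes homocysteine out of the cycle towards cysteine, at 73 with dox and 255 without dox, a log2 ratio of −1.67. Chosen after their values were seen, Cth, the gene of the next step towards cysteine, stood at 323 with dox and 508 without, and Mat2a, which encodes the synthetase subunit of S-adenosylmethionine, at 1047 with dox and 1275 without. Chdh, the gene of the dehydrogenase that starts the making of betaine from choline, also chosen after its values were seen, was listed at 36 with dox and 0 without dox and stayed under the floor.

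Of 14 measured genes of methionine salvage and polyamines 2 were higher, against 9.23% of all genes, and 1 lower, against 5.49%. Their median log2 ratio was −0.31, and counts this small say little about the list beside those shares. The polyamine oxidase gene Smox stood at 553 with dox and 134 without dox, a log2 ratio of 1.97. Odc1, which encodes the ornithine decarboxylase that starts polyamine synthesis, stood at 3823 with dox and 1849 without, a log2 ratio of 1.04. Mri1, a salvage pathway isomerase gene, stood at 62 with dox and 139 without, a log2 ratio of −1.05. That single lower call was lost with a pseudocount of 50 (−0.75), with the median of all genes set to 0 (−0.97), with the length trend removed (−0.98) and with a floor of 250, which Mri1 does not reach.

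Among carriers of amino acids 1 of 11 was higher, against 9.23% of all genes, and 1 lower, against 5.49%. Their median log2 ratio was 0.10. The carrier gene of neutral amino acids Slc38a1 stood at 670 with dox and 247 without dox, whereas Slc7a3, a carrier gene of cationic amino acids that reached the floor only without dox, stood at 46 with dox and 252 without. Of the 8 measured regulators 1 was higher and 1 lower, beside the same shares, with a median of 0.08 that became −0.03 with a floor of 250. The Myc family gene Mycn stood at 57 with dox and 189 without dox, and the stress-linked factor gene Atf5 at 143 with dox and 64 without. The call of Atf5 was lost with a pseudocount of 50 (log2 ratio 0.76), and with a floor of 250 neither gene was kept, which left 0 higher and 0 lower. Atf4, known as an activator of serine synthesis genes and picked here with its values in view, stood at 587 with dox and 627 without. Over all 65 measured genes of these lists that are not among the 10, 6 were at least 2-fold lower, against 5.49% of all genes, and 4 higher, against 9.23%, and the median was −0.18.

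**Figure D4:**
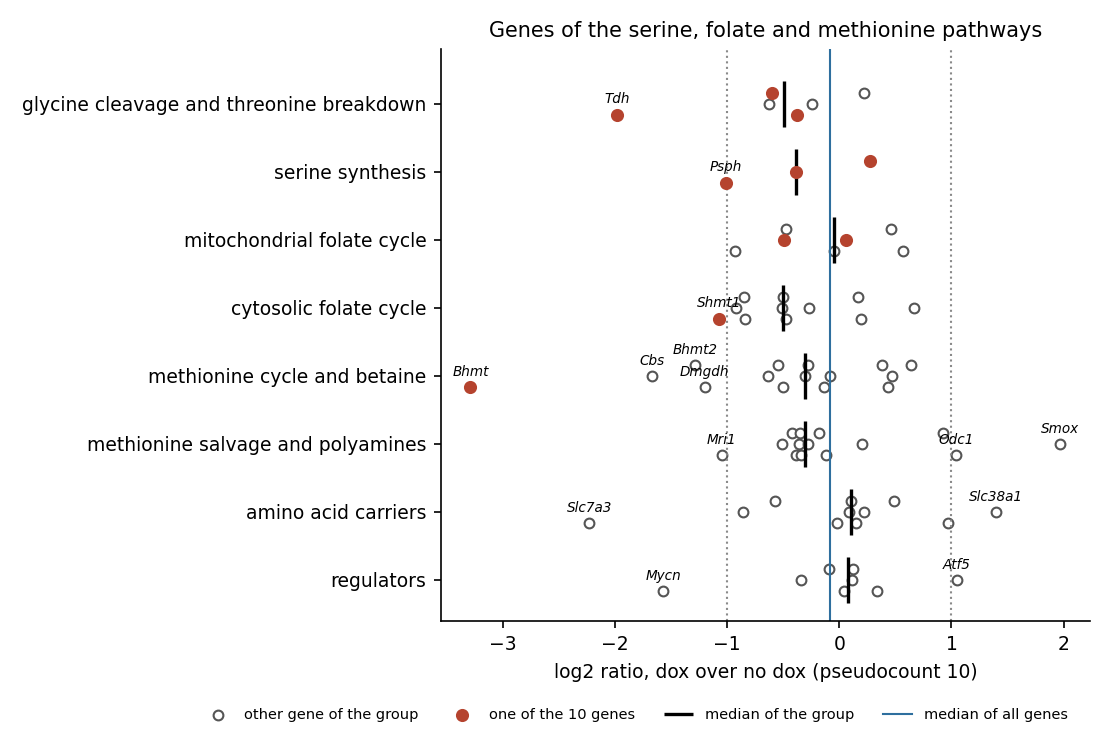
Log2 ratio of dox over no dox (x axis) of every measured gene in 8 pathway groups (y axis), with the 10 genes in red, other genes open, the median of each group as a black bar and that of all 8547 genes as a blue line. Genes past the dotted 2-fold lines are named, and the group of the mitochondrial folate cycle has none.

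Per length of the longest coding transcript, Tdh had the highest level of the 10 in both libraries, at 334 per kb with dox and 1335 per kb without dox. Bhmt had the lowest level with dox, at 18.9 per kb, against 220.1 per kb without dox, where it was close to Psat1 and Shmt2. Psph had the lowest level without dox, at 54.8 per kb, beside Gldc at 55.2 per kb. These orders rest on values whose normalization between genes is not given, so neighbours in them were not ranked further.

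The sign of each of the 10 log2 ratios was the same in every alternative that could be computed for it. Only the centring and the removal of the length trend could have changed a sign. Another pseudocount cannot do so, and another floor leaves each ratio as it was. Tdh and Bhmt were past 2-fold in all 6 of theirs, and Gcat, Gldc, Phgdh, Psat1, Shmt2 and Mthfd2 were within 2-fold in all of theirs. For the same reason the settings with another floor could not alter these calls, and only the pseudocounts, centring and length trend could.

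**Figure D5:**
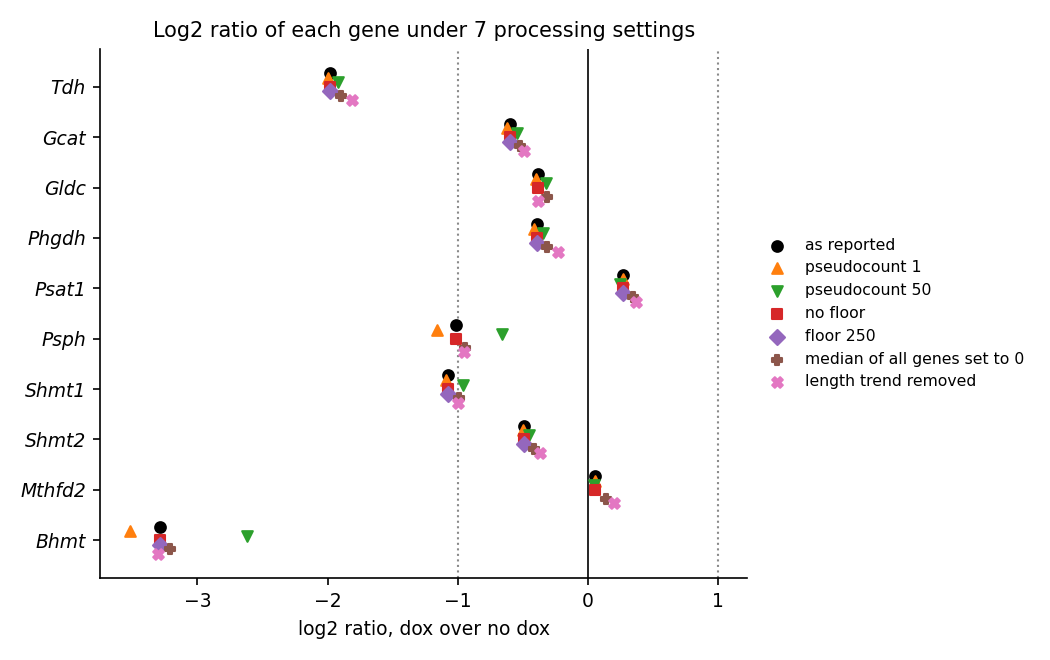
Log2 ratio of dox over no dox (x axis) of each of the 10 genes (y axis) as reported and under 6 other settings for pseudocount, floor, centring and transcript length. Another floor leaves the ratio of a kept gene as reported. The points of Shmt1 and Psph lie on both sides of the dotted 2-fold line at −1, and those of Tdh and Bhmt lie wholly below it.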

How the data were processed

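TRIzol RNA of 2 suspension cultures went into TruSeq RNA libraries (Illumina) read on a NextSeq 500, per the labels' protocols. The submitters' processing notes name bcl2fastq, Bowtie2, RSEM and the build mm10. Versions, annotation, normalization, strand setting and gene filter were not given in the sources used here. All deposited values were handled as a score, normalized and rounded by the authors, because both libraries have equal quartiles and 75.5% of the sorted positions hold equal values (tolerance 0). The depth is not kept, and no count model was used. The table holds 0 further columns of sample values.

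Groups follow the agent label of each sample. The log2 ratio is that of dox over no dox after adding 10 to both values, for genes whose larger value was at least 50. Calls mark 2-fold or more and describe 1 library per group without a test. The 10 genes and the pathway lists were chosen with earlier results of these data known. Named are all 10 genes, Jun, and in each pathway list the genes past 2-fold, otherwise the gene with the largest value. Others are said to be chosen after their values were seen. GENCODE M21 (GRCm38, the assembly of mm10) held 14221 of the 14261 symbols, with RefSeq synonyms used where symbols differed. Shared transcripts of at least 300 nt at 95% identity were sought with BLAST 2.17.0, and the length trend was removed with lowess (fraction 0.3, 8524 genes). GC, CCAAT and TATA boxes were added to the motif search after the windows were seen. Alternatives changed the pseudocount, floor, threshold, centring and length trend. Scripts (Python 3.11.15, pandas 2.3.3, statsmodels 0.14.6) were tested on simulated data. The simulation changed 200 genes by 4-fold, all well above the floor, so it did not cover 2-fold differences or values near the floor.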

Additional observations from a re-analysis of the deposited data

How the results depend on the processing

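Of the 10 genes, 4 were at least 2-fold lower as reported, 2 with a pseudocount of 50, 2 with the median of all genes set to 0, 2 with the length trend removed and 1 at a 4-fold threshold. The count of all genes at least 2-fold lower, 469 as reported, was 171 after adding 50 instead of 10, 796 without a floor and 147 at a floor of 250, and at thresholds of 1.5-fold and 4-fold it was 1511 and 55. That of genes at least 2-fold higher, 789 as reported, was 498, 1255 and 298 under the same pseudocount and floors, and 1425 and 266 at the same thresholds. These shifts follow from the settings themselves. Fewer or more genes enter under another floor, a larger pseudocount draws ratios towards 0, and a higher threshold passes fewer genes. Centring moves every log2 ratio by the same amount, and removing the length trend moves it by an amount set by transcript length. The median of the mitochondrial folate list was 0.03 with centring, against −0.05, and that of the regulators −0.03 with a floor of 250, against 0.08. The other 70 of these values stayed in direction and within 1.5-fold of the reported value. For the median log2 ratios this limit was wide, since 1.5-fold exceeds every reported median. The mitochondrial folate median still counted as unmoved at −0.49 with a floor of 250. That of serine synthesis did so at −0.06 with the same floor, against −0.39. These labels therefore do not show that the medians were stable. Longer transcripts had higher log2 ratios (Spearman rho 0.27 across 8524 genes of the same 2 libraries). No paired analysis was possible because each group has 1 library, and for the same reason no replicate could be left out. Depth is unknown, so no counting interval limits the low values, such as those of Psph and Bhmt with dox.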

Other observations

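Some genes of the same routes were listed near 0 in 1 library and stayed under the floor, and they are given as values only. The amino acid carrier gene Slc6a14 was listed at 0 with dox and 28 without dox, and Slc36a4 at 11 with dox and 0 without. The Myc gene stood at 4 with dox and 34 without. Pemt, the gene of the enzyme that makes phosphatidylcholine with S-adenosylmethionine, stood at 5 with dox and 16 without.

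Neighbours of Mthfd2, chosen after their values were seen, included 4 genes at least 2-fold lower among 16 measured within 500 kb, against 5.49% of all genes, while Mthfd2 itself was level. All 4 reached the floor of 50 only through the library without dox, where they are high, so the count supports nothing about the region. These were Dok1 at 20 with dox and 60 without, Rtkn at 23 with dox and 79 without, Bola3 at 14 with dox and 52 without, and Dguok at 17 with dox and 50 without. Tet3 in the same window stood at 328 with dox and 20 without. Mob1a, which starts 0.1 kb from the outermost GENCODE start of Mthfd2, stood at 465 with dox and 401 without. That start, at 83325908, lies outside the printed window of Mthfd2, which spans 83317605 to 83317854.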
